A study of Mus musculus with 15 samples.

Results

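The VPS10 sorting receptors are 5 related membrane proteins, encoded in the mouse by Sorcs3, Sorcs1, Sorcs2, Sort1 and Sorl1. They were taken by symbol from the 45777 features counted in the striatum of 15 male mice, and all 5 were found. Sorcs3 had been picked because its level was lower in sons of methamphetamine-treated sires than in sons of saline-treated sires. That difference is therefore given as a description, and no test of it is read. The other 4 genes complete the family and were not picked for their levels.

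VPS10 receptors carry a propeller-shaped domain that binds peptides and prohormones, and they ferry cargo between the Golgi, endosomes and the cell surface. The cytoplasmic tails of several of them engage the GGA and AP adaptors and the retromer, the coat that returns cargo from endosomes. In the brain the family is known for handling proneurotrophins, neurotensin, progranulin, the amyloid precursor protein and synaptic receptors. SorCS3 is a neuronal member placed at the postsynapse, where it binds the scaffold PICK1 and bears on glutamate receptor trafficking.

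All mice were wild-type ICR males, an outbred stock, and their striatum was taken at 7 weeks of age. F1 METH mice (n = 3) were sons of males that had received 5 mg/kg methamphetamine (METH, a psychostimulant that releases dopamine) under the skin on each of 21 days from 6 weeks of age. F1 saline mice (n = 4) were sons of males given saline at 10 mL/kg on the same schedule, and in both cases the mothers had received no drug. F2 METH (n = 4) and F2 saline (n = 4) mice were bred from males of those F1 lineages and untreated females, so none of the 15 mice had itself been dosed. The labels do not tie the mice to litters or founders. Mice that share a founder are not independent replicates of its treatment, and the p-values measure only the spread between these animals.

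Library totals were 32805918 to 38514778 reads in F1 METH, 35044343 to 37659436 in F1 saline, 31563806 to 47199267 in F2 METH and 34622167 to 50573906 in F2 saline mice. The labels call the cells neuronal, while the tissue is whole striatum: all 16 spiny projection neuron markers were detected in every library, and so were the 12 oligodendrocyte, 10 astrocyte and 10 microglia markers. Slc17a7, a glutamate transporter of cortical excitatory neurons, varied widely. It was at 24.03 to 396 CPM (read counts scaled to a common library size) in F1 METH, 9.47 to 526 CPM in F1 saline, 10.8 to 130.2 CPM in F2 METH and 9.80 to 182 CPM in F2 saline mice. In bulk tissue, fewer cells of a type and less RNA per cell cannot be told apart.

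Sorcs3 spans 599.5 kb of chromosome 19 (48206025 to 48805505, GRCm38.p6), and its relative Sorcs1 (50143295 to 50679129) is the next tested protein-coding gene after it, 1338 kb away. Sorcs2 lies on chromosome 5 (36017180 to 36398197), Sort1 on chromosome 3 (108283974 to 108361519) and Sorl1 on chromosome 9 (41964709 to 42124297). The 250 bases before the annotated start are shown for Sorcs3, the gene with the lower F1 level, and for Sorl1, the other member whose F1 METH mean lay furthest below the saline mean. They are RefSeq's, on build GRCm38.p6, and CG dinucleotides are in capitals. The Sorcs3 window is chr19:48205775-48206024 on the plus strand and the Sorl1 window chr9:42124298-42124547 on the minus strand.
Sorcs3: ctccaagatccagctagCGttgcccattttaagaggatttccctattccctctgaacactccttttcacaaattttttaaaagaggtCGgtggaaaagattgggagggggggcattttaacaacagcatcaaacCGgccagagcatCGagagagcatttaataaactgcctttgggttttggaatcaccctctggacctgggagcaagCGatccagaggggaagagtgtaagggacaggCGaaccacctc
Sorl1: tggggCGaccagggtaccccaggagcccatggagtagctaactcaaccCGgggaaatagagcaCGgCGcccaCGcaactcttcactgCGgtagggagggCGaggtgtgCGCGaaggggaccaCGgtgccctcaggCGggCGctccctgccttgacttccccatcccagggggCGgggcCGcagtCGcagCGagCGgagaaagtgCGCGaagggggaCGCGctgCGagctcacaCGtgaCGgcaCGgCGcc
The Sorcs3 window held 6 CG dinucleotides and 48.4% G and C, while the Sorl1 window held 26 and 69.6%. Over 32851 such windows the medians were 6 and 52.4%, so the Sorcs3 window is ordinary in this respect and the Sorl1 window is rich. Searched on both strands, the Sorcs3 window had no match to the GC box GGGCGG, the TATA box TATAAA, the cAMP response element TGACGTCA or its first 5 bases TGACG. The Sorl1 window matched GGGCGG, which 32.7% of all windows hold, and TGACG, which 17.8% hold. TATAAA was in 12.4% and TGACGTCA in 1.55% of windows, and a match to TGACGTCA also counts as one to TGACG. The window of Sorcs1, chr19:50678647-50678896 on the minus strand, lay inside the gene span given above and not before it. It held 41 CG dinucleotides and 79.6% G and C and matched GGGCGG. A window at a second start of Sorl1 held 9 and 47.2%. A match or its absence describes these letters only.

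Levels of the 5 genes were compared per transcript length, as TPM, the authors' transcript abundance scaled to the same total in each library. Sort1, encoding sortilin, the endocytic receptor of neurotensin and progranulin, was the most abundant. It averaged 126 ± 9.03 TPM in F1 METH and 126 ± 14.4 TPM in F1 saline mice, and 164 ± 7.85 TPM in F2 METH and 165.5 ± 9.91 TPM in F2 saline mice (mean ± SD, n = 3, 4, 4 and 4, as for all group means here). Sorl1, whose product SORLA routes the amyloid precursor protein through the retromer pathway, averaged 47.6 ± 6.495 TPM in F1 METH and 58.4 ± 7.73 TPM in F1 saline mice. In F2 it averaged 68.1 ± 6.42 TPM in METH and 67.1 ± 2.54 TPM in saline mice. Sorcs2, a receptor for proneurotrophins together with p75NTR, averaged 58.0 ± 4.84 TPM in F1 METH and 51.5 ± 5.35 TPM in F1 saline mice. In F2 Sorcs2 averaged 72.0 ± 1.38 TPM in METH and 66.9 ± 6.05 TPM in saline mice.

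The SorCS1 and SorCS3 genes, whose products act on neurexins and on glutamate receptors, stood lowest. Sorcs1 averaged 21.9 ± 1.47 TPM in F1 METH and 24.3 ± 2.95 TPM in F1 saline mice, and 30.9 ± 2.30 TPM in F2 METH and 29.7 ± 2.15 TPM in F2 saline mice. Sorcs3 averaged 11.7 ± 1.32 TPM in F1 METH and 19.7 ± 3.09 TPM in F1 saline mice, and 19.6 ± 2.35 TPM in F2 METH and 18.3 ± 3.15 TPM in F2 saline mice. The order of TPM levels was thus Sort1, then Sorl1 and Sorcs2, then Sorcs1, then Sorcs3. Sort1 lay above the next gene in every library of each group, by 2.17-fold in F1 METH, 2.16-fold in F1 saline, 2.27-fold in F2 METH and 2.46-fold in F2 saline means. Sorl1 and Sorcs2 overlapped in all 4 groups, and which of them had the higher mean differed between groups. Sorcs1 exceeded Sorcs3 in every one of the 15 libraries, although the ranges of the 2 genes overlapped in F1 saline mice, where their means differed 1.23-fold.

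**Figure D1:**
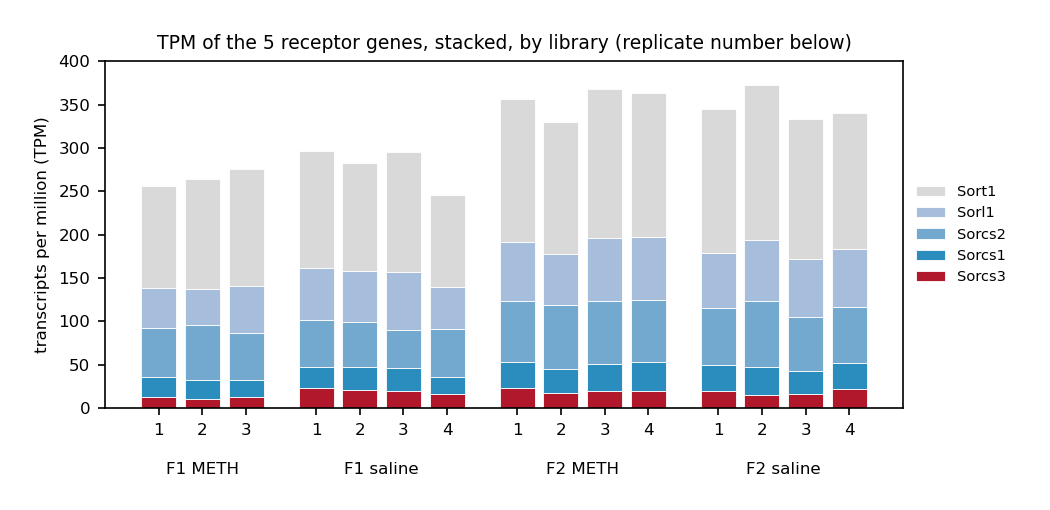
TPM (y axis) of the 5 receptor genes stacked in each of the 15 libraries, with replicate numbers on the x axis under each group. Sort1 takes the largest part of every bar. The Sorcs3 part at the bottom is thinnest in the 3 F1 METH libraries (10.1 to 12.5 TPM), the low level for which the gene was chosen.

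Within the family total, the Sorcs3 share of TPM was 3.84% to 4.89% in F1 METH and 6.34% to 7.67% in F1 saline mice. In F2 it was 5.12% to 6.36% in METH and 4.14% to 6.51% in saline mice. By this measure the F2 means (5.53% in METH and 5.30% in saline) lay between the F1 means (4.40% in METH and 7.01% in saline). The F1 shares of Sorcs3 use the values on which the gene was chosen and are not separate evidence. The group means of the Sorcs1 share lay closer together, at 8.28% in F1 METH, 8.66% in F1 saline, 8.72% in F2 METH and 8.54% in F2 saline mice. Mean shares of the other genes differed in F1 too. They were 21.9% in METH and 18.6% in saline mice for Sorcs2, and 17.9% and 20.8% for Sorl1. For Sort1 they were 47.5% in F1 METH and 45.0% in F1 saline mice. The family total itself was 256 to 276 TPM in F1 METH and 246 to 296 TPM in F1 saline mice, and 329.8 to 368 TPM in F2 METH and 333 to 373 TPM in F2 saline mice. Each generation has its own deposited table, so a difference between generations and a difference between tables cannot be told apart.

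The first comparison set the sons of treated sires against the sons of saline sires. Sorcs3 was at 30.8, 24.1 and 28.9 CPM in F1 METH mice (replicates 1 to 3), against 52.5, 48.7, 42.8 and 37.2 CPM in F1 saline mice (replicates 1 to 4). All 3 METH libraries lay below all 4 saline libraries, and the highest METH value was 30.8 CPM where the lowest saline value was 37.2 CPM. The counts behind them were 924 to 988 reads in METH and 1411 to 1902 reads in saline libraries. The log2 fold change was -0.70, a level 38.4% lower in METH mice. Over all 18499 genes tested, edgeR's quasi-likelihood test called 0 (0%) at an adjusted p under 0.05, and 774 (4.18%) had an unadjusted p under 0.05, 1.66% lower and 2.52% higher in METH mice. Of the same genes, 2.42% had all METH libraries below all saline libraries in CPM, and 3.08% had them all above. Since Sorcs3 was picked for this difference, nothing is read from these shares for it.

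Set against each of the other 4 receptor genes in the same library, Sorcs3 also separated the F1 groups. Its TPM ratio to Sorcs1 was 0.449 to 0.608 in F1 METH and 0.709 to 0.930 in F1 saline mice. The ratio to Sort1 was 0.0803 to 0.107 in F1 METH and 0.139 to 0.1696 in F1 saline mice. The ratio to Sorcs2 was 0.1601 to 0.229 in F1 METH and 0.279 to 0.438 in F1 saline mice, and that to Sorl1 0.2255 to 0.2695 in F1 METH and 0.288 to 0.381 in F1 saline mice. These ratios use the same Sorcs3 values and are not separate evidence.

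**Figure D2:**
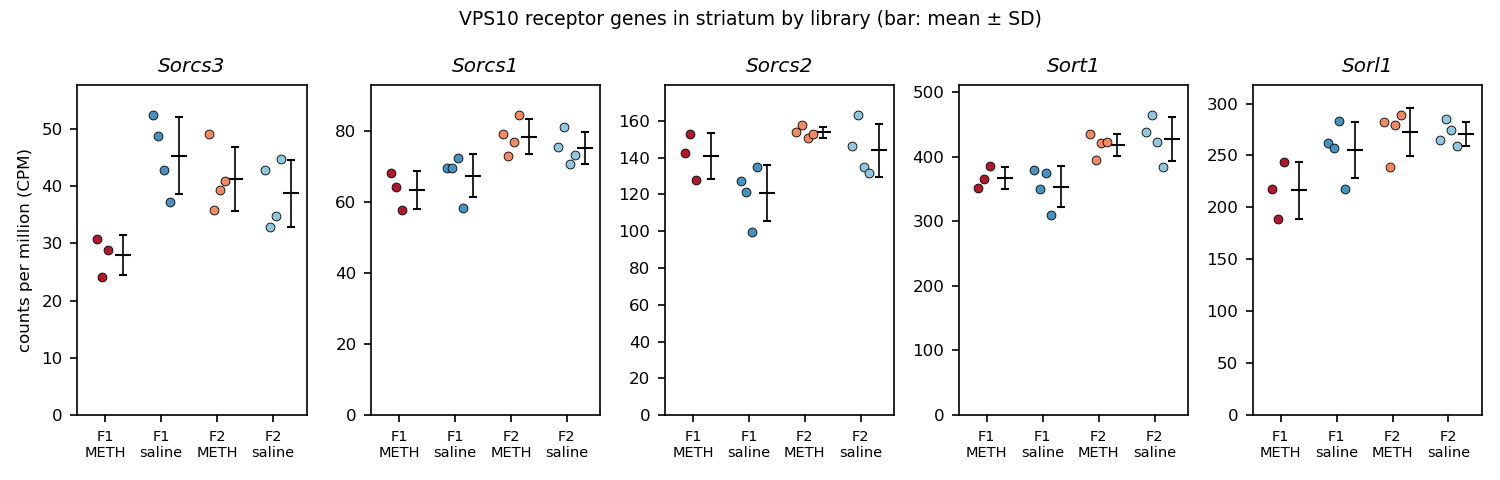
CPM (y axis, from 0) of each receptor gene in the 15 libraries, grouped by generation and lineage on the x axis; points are libraries, and the bar beside them is the mean with its SD. For Sorcs3 the 3 F1 METH libraries (24.1 to 30.8 CPM) lie below the F1 saline libraries, the difference for which the gene was chosen. Of all F1 genes tested, 2.42% have all METH libraries below all saline libraries. The groups overlap within each generation for the other 4 genes.

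Of the other 4 receptor genes, none separated the F1 groups and none passed edgeR's test. Among all F1 genes tested, 2.42% had all METH libraries below all saline libraries and 3.08% above, and edgeR called 0. Sorl1 was at 217.6, 188.5 and 244 CPM in F1 METH mice, against 262, 257.5, 283 and 218.0 CPM in F1 saline mice. METH replicates 1 and 2 lay below every saline library, replicate 1 only just, and replicate 3 lay above saline replicate 4. The log2 fold change of Sorl1 was -0.24 (95% interval -0.50 to 0.027, adjusted p = 0.994). Sorcs2 was on the other side, at 143, 153 and 128 CPM in F1 METH mice, against 127, 121, 99.8 and 135 CPM in F1 saline mice. METH replicates 1 and 2 were above all saline libraries and replicate 3 lay inside their range. The log2 fold change of Sorcs2 was 0.22 (95% interval -0.034 to 0.48, adjusted p = 0.994).

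Sorcs1, the chromosome 19 relative, was at 68.4, 64.2 and 57.8 CPM in F1 METH mice, against 69.5, 69.6, 72.4 and 58.5 CPM in F1 saline mice. Its log2 fold change was -0.089 (95% interval -0.31 to 0.13, adjusted p = 0.994). Without the libraries that had Slc17a7 above 100 CPM, which leaves 2 in each group, the value was 0.052. Sort1 was at 352, 365 and 386 CPM in F1 METH mice, against 379, 350.5, 375 and 310.1 CPM in F1 saline mice, a log2 fold change of 0.055 (95% interval -0.15 to 0.26, adjusted p = 0.994). For these 4 genes the intervals leave room for differences of the size of their bounds.

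The second comparison put the same question to grandsons, in mice that played no part in the choice of Sorcs3. Sorcs3 was at 49.1, 35.9, 39.4 and 40.8 CPM in F2 METH mice, against 42.8, 32.9, 34.7 and 44.7 CPM in F2 saline mice. The groups overlapped, and the highest value belonged to METH replicate 1 and the lowest to saline replicate 2. The log2 fold change was 0.091 (95% interval -0.18 to 0.36, edgeR adjusted p = 0.971). The interval runs from a 0.885-fold to a 1.28-fold level in METH mice. Without the libraries that had Slc17a7 above 100 CPM the F2 value was 0.23, and without F2 METH replicate 1 it was -0.0038. In F2, edgeR called 0 of 18093 genes (0%), and 863 (4.77%) had an unadjusted p under 0.05, 2.66% lower and 2.11% higher in METH mice.

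The other receptor genes also overlapped between the F2 groups. All METH libraries lay below all saline libraries for 1.20% of genes and above them for 1.34%. Sorcs2 was at 154, 158, 151 and 153 CPM in F2 METH mice, against 146, 163.5, 135 and 131.5 CPM in F2 saline mice. The METH libraries lay close together inside the range of the saline libraries. The log2 fold change of Sorcs2 was 0.094 (95% interval -0.064 to 0.25, adjusted p = 0.961). Sorl1 was at 282, 238, 279.5 and 289 CPM in F2 METH mice, against 265, 285, 274 and 259 CPM in F2 saline mice, a log2 fold change of 0.0070 (95% interval -0.15 to 0.16, adjusted p = 0.998). METH replicate 2 was the lowest F2 library for Sorl1 and replicate 4 the highest.

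Sorcs1 was at 79.3, 73.0, 76.8 and 84.7 CPM in F2 METH mice, against 75.7, 81.3, 70.8 and 73.4 CPM in F2 saline mice. Its log2 fold change was 0.060 (95% interval -0.088 to 0.21, adjusted p = 0.967). Sort1 was at 435, 395, 422 and 423 CPM in F2 METH mice, against 439, 465.5, 423 and 384 CPM in F2 saline mice. Its log2 fold change was -0.030 (95% interval -0.18 to 0.12, adjusted p = 0.986). Apart from Sorcs3, the largest of these 8 estimates were those of F1, 1.18-fold lower for Sorl1 and 1.17-fold higher for Sorcs2 in METH mice.

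**Figure D3:**
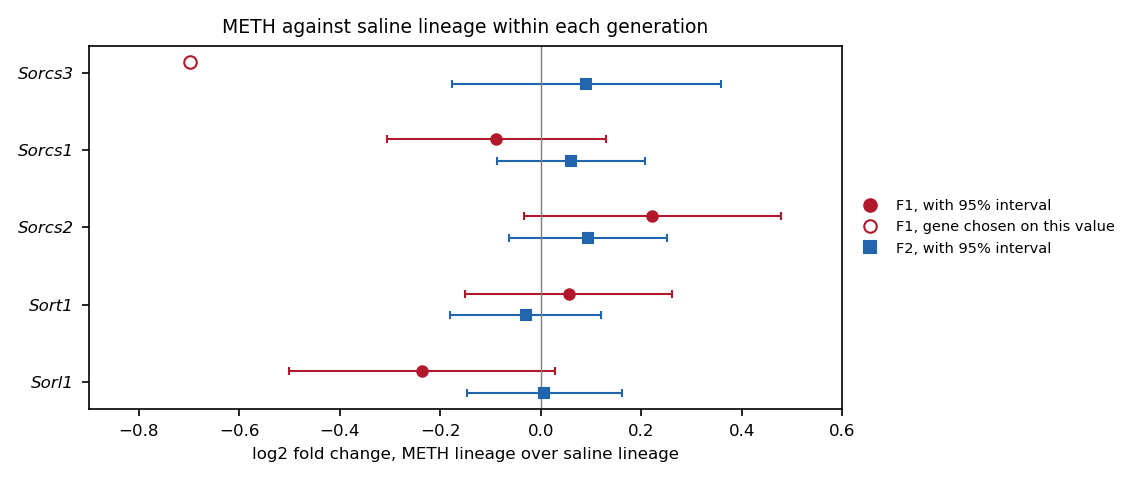
Log2 fold change of METH over saline lineage (x axis) for each receptor gene, F1 above F2, with 95% intervals from edgeR; the open circle is Sorcs3 in F1, drawn without an interval because the gene was chosen on it. The Sorcs3 circle sits at -0.70, and all 9 intervals cross 0.

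The difference between generations, the F2 log2 fold change minus that of F1 in one fit of the 15 libraries, was 0.78 for Sorcs3. It contains the F1 value on which the gene was chosen and is given without a test. For the other genes it was 0.24 for Sorl1 (SE 0.14), 0.14 for Sorcs1 (SE 0.12), -0.14 for Sorcs2 (SE 0.13) and -0.095 for Sort1 (SE 0.11), each with an edgeR adjusted p of 1.0. The test called 1 of 19308 genes (0.00518%), and 943 (4.88%) had an unadjusted p under 0.05.

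The medians of several cell type marker lists lay away from 0 in F1 and are set beside the Sorcs3 value, although edgeR called 0 genes of any of these lists (smallest adjusted p = 0.994). Cortical excitatory neuron markers were lower in F1 METH mice for 14 of 16 genes, with a median log2 fold change of -0.40, where the median of all genes was -0.0035. Their summed level was 1413 to 2119 CPM in F1 METH and 1323 to 2463 CPM in F1 saline mice, and 1 of them, Neurod1, was at 0 reads in F1 METH replicate 1. In F1 METH replicates 1 to 3 Slc17a7 was at 30.98, 24.03 and 396 CPM, beside Sorcs3 at 30.8, 24.1 and 28.9 CPM. In F1 saline replicates 1 to 4 Slc17a7 was at 322.1, 97.99, 525.8 and 9.47 CPM. Sorcs3 in these saline libraries was at 52.5, 48.7, 42.8 and 37.2 CPM. Without libraries above 100 CPM of Slc17a7, which leaves 2 in each group, the F1 log2 fold change of Sorcs3 was -0.64. With the cortical marker mean as a covariate it was -0.67. The part of cortical tissue in the Sorcs3 result was not tested.

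Of the hippocampal and amygdalar excitatory markers, 9 of the 9 tested were lower in F1 METH mice, with a median log2 fold change of -0.31. The list summed to 244 to 363 CPM in F1 METH and 344 to 423 CPM in F1 saline mice, and Iyd was at 0 reads in all 3 METH and in 2 of 4 saline libraries. Oligodendrocyte markers were higher in F1 METH mice for 12 of 12 genes (median 0.28), with summed levels of 7857 to 11011 CPM in METH and 7036 to 8768 CPM in saline mice and no marker at 0. Endothelial markers were higher for 9 of 10 genes (median 0.20), and their summed level did not overlap between the groups, at 320.9 to 349.9 CPM in F1 METH and 271 to 302 CPM in F1 saline mice. Among single genes tested in F1, 3.08% had all METH libraries above all saline libraries. At an unadjusted p under 0.05 in edgeR there were 5 of the 10 endothelial, 4 of the 12 oligodendrocyte and 2 of the 10 astrocyte markers, these being higher in METH mice. The interneuron list had 1 of 10 at that threshold, lower in METH mice. Of all F1 genes tested, 2.52% were higher and 1.66% lower at that threshold. Astrocyte markers were higher for 9 of 10 genes (median 0.19), with sums of 4355 to 6278 CPM in F1 METH and 3837 to 4409 CPM in F1 saline mice. Microglia markers were higher for 9 of 10 genes (median 0.19), with sums of 370.3 to 532 CPM in F1 METH and 356 to 428 CPM in F1 saline mice. Spiny projection neuron markers were higher for 13 of 16 genes (median 0.085), with sums of 8967 to 12934 CPM in F1 METH and 7532 to 11799 CPM in F1 saline mice. Interneuron markers were lower for 7 of 10 genes (median -0.080), with sums of 441 to 491 CPM in F1 METH and 443 to 559 CPM in F1 saline mice. The part of these other lists in the Sorcs3 result was not tested either. In F2 METH mice the medians were -0.015 for cortical, -0.089 for hippocampal and amygdalar, -0.14 for oligodendrocyte, -0.18 for astrocyte and -0.25 for microglia markers. For endothelial, interneuron and spiny projection neuron markers they were -0.049, -0.11 and 0.068. At an unadjusted p under 0.05 F2 had 4 astrocyte, 3 microglia, 1 endothelial and 1 hippocampal and amygdalar marker, all lower in METH mice. Of all F2 genes tested, 2.66% were lower and 2.11% higher at that threshold.

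To ask which cells each receptor gene moved with, its log2 CPM was taken as a deviation from the mean of its own group, so that the lineage difference drops out. Over the 15 libraries, deviations of Sorcs2 followed the mean of the spiny projection neuron markers (Pearson r = 0.92, Spearman rho = 0.86). The value was 0.95 in the 7 F1 libraries, 0.86 in the 8 F2 libraries and 0.85 over 13 libraries without the 2 farthest from the median of the markers. With the same markers Sort1 had r = 0.93 in F2 but -0.56 in F1. Sorl1 had 0.51 in F2 and -0.77 in F1, and Sorcs1 0.59 in F2 and 0.015 in F1. Sorcs2 also had r = -0.70 with the interneuron markers. Against the cortical markers Sorcs2 ran the other way (r = -0.79, rho = -0.66), with -0.85 in F1, -0.66 in F2 and -0.71 without the 2 farthest libraries. Sorcs3 had r = -0.099 (rho = -0.15) with the spiny projection neuron markers, with -0.021 in F1, -0.30 in F2 and -0.24 without the 2 farthest libraries. With the cortical markers it had 0.17 (rho = 0.15), with 0.40 in F1, -0.14 in F2 and -0.072 without the 2 farthest libraries. Its values with the oligodendrocyte markers were r = -0.31 and rho = -0.45, with -0.82 in F1, -0.039 in F2 and -0.46 without the 2 farthest libraries. With the endothelial markers Sorcs3 had r = 0.38 (rho = 0.375), with 0.38 in F1, 0.42 in F2 and 0.25 without the 2 farthest libraries. These are descriptions of libraries that share a dissection and a pipeline, and the markers and receptor genes share each library's depth and scaling.

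**Figure D4:**
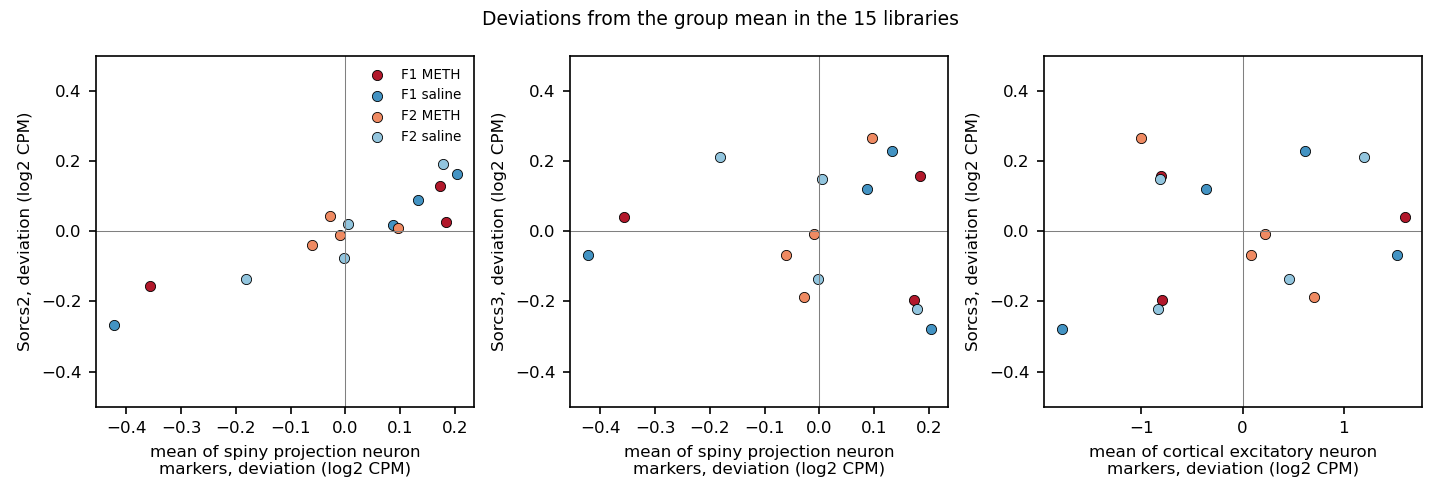
Each of the 15 libraries as a point, coloured by group, with the deviation of a marker list's mean log2 CPM from its group mean on the x axis and that of Sorcs2 or Sorcs3 on the y axis. Sorcs2 rises with the spiny projection neuron markers (r = 0.92), and Sorcs3 has pooled values of r = -0.099 with them and 0.17 with the cortical markers.

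With the cortical markers the sign of the correlation was opposite in the 2 generations for Sorcs3, given above, and for Sorcs1, Sort1 and Sorl1, a difference that was not tested. Sorcs1 had r = 0.20 in F1 and -0.56 in F2, Sort1 had r = 0.86 in F1 and -0.89 in F2, and Sorl1 0.90 in F1 and -0.52 in F2. Pooled over the 15 libraries these gave 0.18 (rho = 0.054) for Sort1 and 0.46 (rho = 0.34) for Sorl1, and without the 2 farthest libraries -0.24 and 0.12. The pooled values therefore describe neither generation. The same genes also changed sign with the hippocampal and amygdalar and the interneuron markers. With the former, r in F1 and F2 was 0.43 and -0.26 for Sorcs3 and 0.19 and -0.70 for Sorcs1. It was 0.78 and -0.82 for Sort1 and 0.68 and -0.74 for Sorl1. With the interneuron markers it was 0.55 and -0.29 for Sorcs3 and 0.44 and -0.47 for Sorcs1. For Sort1 it was 0.87 and -0.67, and for Sorl1 0.86 and -0.38. Between receptor genes, the closest pair was Sort1 and Sorl1 (r = 0.72, rho = 0.77). Sorcs1 had 0.57 with Sort1 and 0.47 with Sorl1, and Sorcs2 had -0.54 with Sorl1. Sorcs3 had 0.39 with Sorl1, 0.30 with Sorcs1, 0.17 with Sort1 and -0.30 with Sorcs2.

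The genes most like each receptor gene were those with the highest r of these deviations among 13498 genes with a mean of at least 1 CPM. For Sorcs3 they were Gcfc2 (0.88), the sodium channel gene Scn9a (0.85), the zinc finger gene Zfp583 (0.84), Ercc3 (0.83), a helicase of transcription factor TFIIH, and Il17rd (0.82), a membrane antagonist of growth factor signalling. In F1 the log2 fold changes of these 5 genes were 0.17, -0.037, 0.031, -0.055 and -0.24. The genes most like Sorcs2 were Syndig1l (0.98), known for its expression in striatum, Smpd3 (0.96), a neutral sphingomyelinase, and Hpca (0.95), the calcium sensor hippocalcin. For Sort1 they were Usp31 (0.94), Kpna6 (0.93) and Adora1 (0.93), the adenosine A1 receptor. For Sorl1 they were Sgsm1 (0.91), Clip1 (0.90), a microtubule plus-end protein, and Ank2 (0.87), ankyrin-B. For Sorcs1 they were Amer1 (0.89), Ankrd34a (0.88) and Wdr78 (0.88). Ankrd34a had all F1 METH libraries below all F1 saline libraries, as had 2.42% of all genes tested. Its log2 fold change was -0.32, while Amer1 had -0.043 and Wdr78 0.11. With 15 libraries and so many candidates, the top values are high by selection.

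Genes around Sorcs3 were described by the same contrast. Within 2 Mb on either side lay 33 tested protein-coding genes, of which 15 were higher and 18 lower in F1 METH mice. Apart from Sorcs1, all of them lay before Sorcs3. The F1 log2 fold changes of the 33 genes ran from -0.31 to 0.32 with a median of -0.039. Sorcs3, at -0.70, was picked for that value, so nothing is read from its distance to these genes. The nearest tested gene before it, Itprip, encoding a partner of the inositol trisphosphate receptor, lay 286.7 kb away and had -0.14 (SE 0.33). In F2 the 33 genes had a median of 0.048, with 22 higher and 11 lower in METH mice. None of the 33 was called by edgeR in F1 or in F2, where 1 and 3 of them had an unadjusted p under 0.05. Over all genes tested that share was 4.18% in F1 and 4.77% in F2.

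Ligands and co-receptors of the family were read from lists. Of 7 tested neurotrophin and neurotrophin receptor genes in F1, 2 were higher and 5 lower in METH mice (median log2 fold change -0.036), and of 6 tested in F2, 2 were higher and 4 lower (median -0.091). Bdnf, a neurotrophin whose precursor binds sortilin and SorCS2, was at 0.729 to 6.85 CPM in F1 METH and 0.132 to 11.95 CPM in F1 saline mice, with F2 at 0.394 to 4.09 CPM in METH and 0.135 to 6.33 CPM in saline mice. Ngfr, encoding p75NTR, had log2 fold changes of -1.42 in F1 and -0.74 in F2, and Ntrk2, encoding the BDNF receptor TrkB, -0.036 in F1 and -0.16 in F2. Ngfr was at 1.12 to 2.25 CPM in F1 METH and 1.13 to 9.604 CPM in F1 saline mice, within which saline replicates 2 and 3 were high and replicates 1 and 4 were not. Single saline libraries carried much of both Ngfr values: the log2 fold change was -0.81 without F1 saline replicate 2 and -0.31 without F2 saline replicate 1.

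Of the 25 tested genes of other ligands and cargo, 11 were higher and 14 lower in F1 METH mice (median -0.026), and 13 were higher and 12 lower in F2 METH mice (median 0.0029). Nts, encoding neurotensin, the peptide ligand of sortilin, was at 3.50, 2.32 and 2.63 CPM in F1 METH mice, against 6.21, 15.1, 4.02 and 3.43 CPM in F1 saline mice. In F2 it was at 4.52, 4.07, 4.36 and 4.57 CPM in METH mice, against 6.42, 7.39, 10.4 and 4.71 CPM in saline mice. The F2 groups did not overlap, though METH replicate 4 and saline replicate 4 lay close together, and F1 METH replicate 1 exceeded F1 saline replicate 4. Of all F2 genes tested, 1.20% had all METH libraries below all saline libraries. The log2 fold changes of Nts were -1.35 in F1 and -0.73 in F2, and the F1 value was -0.70 without F1 saline replicate 2. No gene of the list passed edgeR's test (smallest adjusted p = 0.994 in F1 and 0.961 in F2). At an unadjusted p under 0.05 the list had Nts and Ntsr1 in F1 and Nts and Apoe in F2, all lower in METH mice. Of all genes tested, 1.66% in F1 and 2.66% in F2 were lower at that threshold. Grn, encoding progranulin, had 0.048 in F1 and 0.057 in F2, App, the amyloid precursor, 0.014 and 0.073, and Bace1, the protease that cuts it, -0.046 and 0.0029.

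The sorting machinery gave small differences. Of 16 retromer and sorting nexin genes, 2 were higher and 14 lower in F1 METH mice (median -0.059), and 4 were higher and 12 lower in F2 METH mice (median -0.037). The core subunit gene Vps35 had -0.13 in F1 (SE 0.074) and -0.092 in F2 (SE 0.077). Vps26a had -0.080 in F1 and -0.15 in F2, Vps26b, the paralog, -0.085 and -0.016, and Snx27, a sorting nexin that binds PDZ ligands, -0.0027 and -0.033. All 16 GGA and AP adaptor genes were lower in F1 METH mice (median -0.076), and 8 were higher and 8 lower in F2 METH mice (median -0.0017). Gga1, an adaptor of the sortilin tail, had -0.015 in F1 and 0.038 in F2. edgeR called 0 genes of either list, and 1 adaptor gene had an unadjusted p under 0.05 in each generation, Ap2b1 in F1 and Ap2s1 in F2. Over all genes tested that share was 4.18% in F1 and 4.77% in F2.

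Of 11 tested synaptic partners of SorCS2 and SorCS3, 6 were higher and 5 lower in F1 METH mice (median 0.0070), and 7 were higher and 4 lower in F2 METH mice (median 0.026). Slc1a1, a neuronal glutamate transporter gene, was the 1 partner with an unadjusted p under 0.05, higher in F1 METH mice by 0.21 on the log2 scale. Pick1 itself was at 55.2 to 62.5 CPM in F1 METH and 57.6 to 60.9 CPM in F1 saline mice, with log2 fold changes of 0.0070 in F1 and 0.049 in F2. Among proteases that mature or shed the receptors, 8 of 12 were higher in F1 METH mice (median 0.030) and 5 of 12 in F2 METH mice (median -0.034). Aph1a was the 1 protease-list gene with an unadjusted p under 0.05, at 0.22 in F1. The sheddase genes had -0.025 in F1 and -0.086 in F2 for Adam10 and 0.015 and -0.11 for Adam17. Furin, the convertase that removes the propeptide, had 0.095 in F1 and -0.016 in F2. The LDL receptor family and other endocytic receptors, a comparison family, had medians of -0.015 over 13 genes in F1 and 0.0093 over 14 genes in F2, with Lrp8, a reelin receptor gene, at -0.016 and 0.088. edgeR called 0 genes of these 3 lists in F1 and 0 in F2. Over all genes tested, 4.18% in F1 and 4.77% in F2 had an unadjusted p under 0.05.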

How the data were processed

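Striatal RNA of 15 mice was sequenced. The submitters' processing notes name bcl2fastq 2.20.0 and Trimmomatic, the aligner HISAT2 2.1.0, the assembler StringTie 2.1.3b, and mm10 as the build. Their order, settings and strand handling, and the way counts were made, are not given in sources used here. Each generation has 1 deposited table with read counts, FPKM and TPM per gene, per the file headers. The deposited counts, whole numbers whose totals differ between libraries, served as raw counts. TPM are the authors' values, and the authors' FPKM were not used. Titles gave the groups and replicate numbers, and the code in each description gave the column.

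edgeR 4.0.16 in R 4.3.3 (glmQLFit, glmQLFTest, TMM scaling, filterByExpr at a count of at least 10) tested each generation, and the interaction over 15 libraries. A call is an adjusted p (Benjamini-Hochberg, over all genes tested) under 0.05. CPM used TMM-scaled totals per generation, and deviations used log2 CPM (prior count 2) scaled over all 15 libraries. DESeq2 1.42.0 and limma 3.58.1 served as alternatives, and matplotlib 3.10.9 drew the figures. The steps were tested on simulated data. Members, lists and tests were chosen with earlier results of these data known. Named genes were the 5 receptors, 17 fixed partners (another is not reported here), any list member past the threshold (there was none), the nearest tested protein-coding gene on each side of Sorcs3, and the genes with the highest r, skipping Gm, Rik and LOC symbols. The 17 partners have no test of their own. Ntsr1, Apoe, Ap2b1, Ap2s1, Slc1a1 and Aph1a, named for an unadjusted p, and the markers at 0 were picked after their values were seen. No replicate pair matched within sampling noise (chi-square per degree of freedom 15.0 to 60.4). If reads were counted without strand, antisense partners and overlapping genes share counts.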

Additional observations from a re-analysis of the deposited data

Results flagged for a closer look

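In the 3 groups of 4 mice, each receptor and partner gene was checked for a library far from the other 3, by the gap to its nearest neighbour over the range of the group. Of 66 checks 6 stood out, where chance gives about 1 in 20, and none was a receptor gene. In F2 METH mice, Vps26a was lowest in replicate 3 (24.8 CPM), Snx27 highest in replicate 1 (189.8 CPM) and Furin highest in replicate 3 (38.1 CPM). In F2 saline mice, Ngfr was highest in replicate 1 (11.9 CPM), Bdnf highest in replicate 4 (6.33 CPM) and Lrp8 highest in replicate 4 (54.2 CPM). F2 saline replicate 4 also had the highest Slc17a7 of the F2 libraries (182 CPM), and the part of cortical tissue in its Bdnf and Lrp8 values was not tested.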

How the results depend on the processing

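The F1 log2 fold change of Sorcs3 ran from -0.78 to -0.60 over 18 alternatives, and the lowest without 1 library was -0.78 and the highest -0.60. The F2 minus F1 difference of Sorcs3 ran from 0.68 to 0.88 over 25 alternatives. No alternative called any of the other 4 receptor genes. Sorcs3 in F2 ran from -0.0038 to 0.23 over 19 alternatives, the highest without libraries with Slc17a7 above 100 CPM. Small uncalled values changed sign. Sorcs1 in F1 was 0.052 without libraries with Slc17a7 above 100 CPM, and Sorl1 in F2 was -0.00746 in one fit of all 15 libraries. Leaving out 1 library at a time gave -0.0027 to 0.088 for Sort1 in F1, -0.0038 to 0.17 for Sorcs3 in F2, -0.027 to 0.065 for Sorl1 in F2 and -0.080 to 0.012 for Sort1 in F2. In F1, DESeq2's Wald test called 7 genes, from a larger set than the 18499 tested by edgeR. Sorcs3 was among the 7, but it was chosen on this contrast, so nothing is read from its call. Other counts of called genes in F1 were 3 with limma-voom, 1 with limma-trend on log2(TPM + 1) and 1 on log2(TPM + 0.1). They were 1 in one fit of all 15 libraries and 1 without libraries with Slc17a7 above 100 CPM. Without 1 library they were 0 to 2, the 2 without F1 saline replicate 2. In F2 they were 9 with DESeq2, 1 with limma-voom, 1 without those Slc17a7 libraries, and 0 to 1 without 1 library. For the difference between generations they were 1 in the reported fit, 4 with DESeq2, 0 with limma-voom, 0 with a mean CPM of at least 1, 0 and 0 with limma-trend on TPM + 1 and TPM + 0.1, 0 without those Slc17a7 libraries, 0 with the cortical covariate, and 0 to 2 without 1 library, the 2 again without F1 saline replicate 2 and 0 without any other. The cause of these shifts was not tested. With the replicate number as a block, edgeR called 0 genes in F1, 0 among F2 mice and 0 between generations, and Sort1 in F1 was -0.0032. Same-numbered libraries correlated at -0.034, 0.059 and 0.40 in F1 and at -0.062 to 0.039 in F2. Pairs with different numbers ran from -0.37 to 0.228 in F1 and from -0.0875 to 0.0854 in F2. The 0.40, of replicate 3, was thus the highest F1 value. Whether same-numbered libraries share more than a number was not tested.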
